A study of Mus musculus with 8 samples.

Results

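The H3K27Ac peaks described here belong to 36 mouse genes of mitosis and cytokinesis. A peak was assigned to one of them when the peak centre lay nearest to a curated RefSeq transcription start of that gene in mm10. This rule gave 48 of the 45980 peaks that could be joined to a start, and they fell to 30 of the 36 genes. The other 6 genes, *Bub1*, *Ect2*, *Kif4*, *Nusap1*, *Foxm1* and *Anln*, had no nearest peak. A peak was classed as a promoter peak when its centre lay from 1000 bp upstream to 100 bp downstream of any start. This split the 48 peaks into 20 promoter peaks and 28 other peaks.

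The chromatin came from mouse ventricles at postnatal day 7. The controls were *Arid1a f/f* and carried no Cre, and the *Arid1a cKO* mutants were *aMHC-Cre;Arid1a f/f*, so both genotypes carried floxed *Arid1a* alleles. Of the 8 libraries, 4 were precipitated with an antibody against H3K27Ac, 2 per genotype, and the rest were inputs. The aMHC promoter drives Cre in cardiomyocytes, while the ventricle also holds fibroblasts, endothelial cells, mural cells and other cells in which this promoter is not active. *Arid1a* encodes a DNA-binding protein of the SWI/SNF family of nucleosome remodelers.

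Mitosis begins when the kinase CDK1, bound to cyclin B, becomes active. It ends with the destruction of cyclin B and the cleavage of the cell by an actomyosin ring. Many genes of this program are silent in resting cells and are switched on together in G2, through promoters that hold CCAAT boxes, bound by NF-Y, and a CHR element, bound by the DREAM and MuvB complexes. Mouse cardiomyocytes leave the cell cycle in the first days after birth, and most then become binucleated. H3K27Ac, acetylation of lysine 27 on histone H3, marks active promoters and enhancers.

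The deposited table gave, for each peak, the log2 of the mean normalized reads of the control hearts and of the *Arid1a cKO* hearts, as the authors' group means. Values of single hearts were not in the columns analysed, so no replicate error and no test could be given for any difference below, and the depth of the libraries is unknown. A difference is the log2 mean of *Arid1a cKO* minus that of control. Peaks were counted as higher or lower when the groups differed by at least 1.5-fold, which is 0.58 on the log2 scale. Levels of different genes were compared as normalized reads per kb of peak.

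The promoters of these genes shared short sequences that the choice of peaks did not use. RefSeq promoter windows of GRCm38.p6, from 250 bases before to 50 bases after a start, were found for 29 of the 36 genes. The genes without an entry were *Ccna2*, *Aurkb*, *Kif20a*, *Incenp*, *Tpx2*, *Cdc25c* and *Foxm1*. The 120 bases before the start are shown for the 6 genes with an entry whose promoter peak had the largest positive difference and held a match, and for *Ccnb1* and *Cdk1*, the cyclin and kinase that start mitosis, which were added after their values were seen. They are printed 5′ to 3′ on the strand of the gene, with matches to the CHR element (TTTGAA or TTTAAA) and to the CCAAT box in capitals on either strand.
*Ccnb1*, chr13:100786487-100786606, minus strand: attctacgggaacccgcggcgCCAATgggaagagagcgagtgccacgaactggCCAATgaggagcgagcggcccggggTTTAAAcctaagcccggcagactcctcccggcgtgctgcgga
*Cdk1*, chr10:69352913-69353032, minus strand: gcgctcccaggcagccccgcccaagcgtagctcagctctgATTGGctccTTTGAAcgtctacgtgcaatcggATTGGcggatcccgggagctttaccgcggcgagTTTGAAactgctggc
*Aspm*, chr1:139454653-139454772, plus strand: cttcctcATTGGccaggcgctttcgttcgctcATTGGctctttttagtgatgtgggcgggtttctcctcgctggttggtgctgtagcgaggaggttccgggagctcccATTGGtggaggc
*Top2a*, chr11:99024190-99024309, minus strand: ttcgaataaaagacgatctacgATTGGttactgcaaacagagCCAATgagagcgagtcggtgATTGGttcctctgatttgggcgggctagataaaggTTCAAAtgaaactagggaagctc
*Nek2*, chr1:191821353-191821472, plus strand: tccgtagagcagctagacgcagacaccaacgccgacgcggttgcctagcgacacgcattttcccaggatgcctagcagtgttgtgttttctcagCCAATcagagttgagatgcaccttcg
*Cdc20*, chr4:118437344-118437463, minus strand: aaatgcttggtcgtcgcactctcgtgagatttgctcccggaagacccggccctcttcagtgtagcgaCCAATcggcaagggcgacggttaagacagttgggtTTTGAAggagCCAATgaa
*Cenpe*, chr3:135212443-135212562, plus strand: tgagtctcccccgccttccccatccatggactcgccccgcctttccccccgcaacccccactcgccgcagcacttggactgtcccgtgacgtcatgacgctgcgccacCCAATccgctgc
*Plk1*, chr7:122159315-122159434, plus strand: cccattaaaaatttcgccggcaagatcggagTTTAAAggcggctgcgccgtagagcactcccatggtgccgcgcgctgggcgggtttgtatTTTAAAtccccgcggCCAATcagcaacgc

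In these windows, *Top2a* held 6 CCAAT boxes, the most of any member, and its nearest CHR match lay 23 bases before the start. *Cdc20* had the compact arrangement, with a CHR match 18 bases before the start and CCAAT boxes at 53 and 8 bases before it. *Cdk1* had CHR matches at 71 and 15 bases before the start and CCAAT boxes at 80 and 48 bases. *Ccnb1* had a CHR match at 42 bases, downstream of CCAAT boxes at 99 and 67 bases. *Aspm* and *Cenpe* had a CHR match just past the start, at positions 6 and 14, outside the bases shown (the base at the start counts as 0). *Nek2* held 2 CCAAT boxes and no CHR match in its window.

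Among the 29 promoters, 24 held a CHR match (82.8%), against 27.6% of all 32851 RefSeq promoters of the same length and 18.8% of the 14277 whose start lay under an H3K27Ac peak. A CCAAT box was found in 23 (79.3%), against 37.4% of all promoters and 36.3% of those under a peak. Both were found in 21 (72.4%), against 10.7% and 7.31%. No test was made of these shares. The contrast was wider in the shorter window from 100 bases before to 50 after the start, where CHR matches stood in 23 of the promoters (79.3%) and in 12.8% of all. The genes without a CHR match were *Bub1*, *Nek2*, *Mad2l1*, *Nusap1* and *Nuf2*, and those without a CCAAT box were *Anln*, *Birc5*, *Mad2l1*, *Ndc80*, *Nuf2* and *Nusap1*.

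The matches also had an orientation. TTTGAA read forward on the strand of the gene 22 times and in reverse 5 times in the members (81.5% forward), while over all promoters 53.3% were forward. TTTAAA is its own reverse complement and has no orientation. Of the members' promoters, 9 held 2 CCAAT boxes and 5 held 3. Boxes per promoter were not counted over all promoters.

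**Figure D1:**
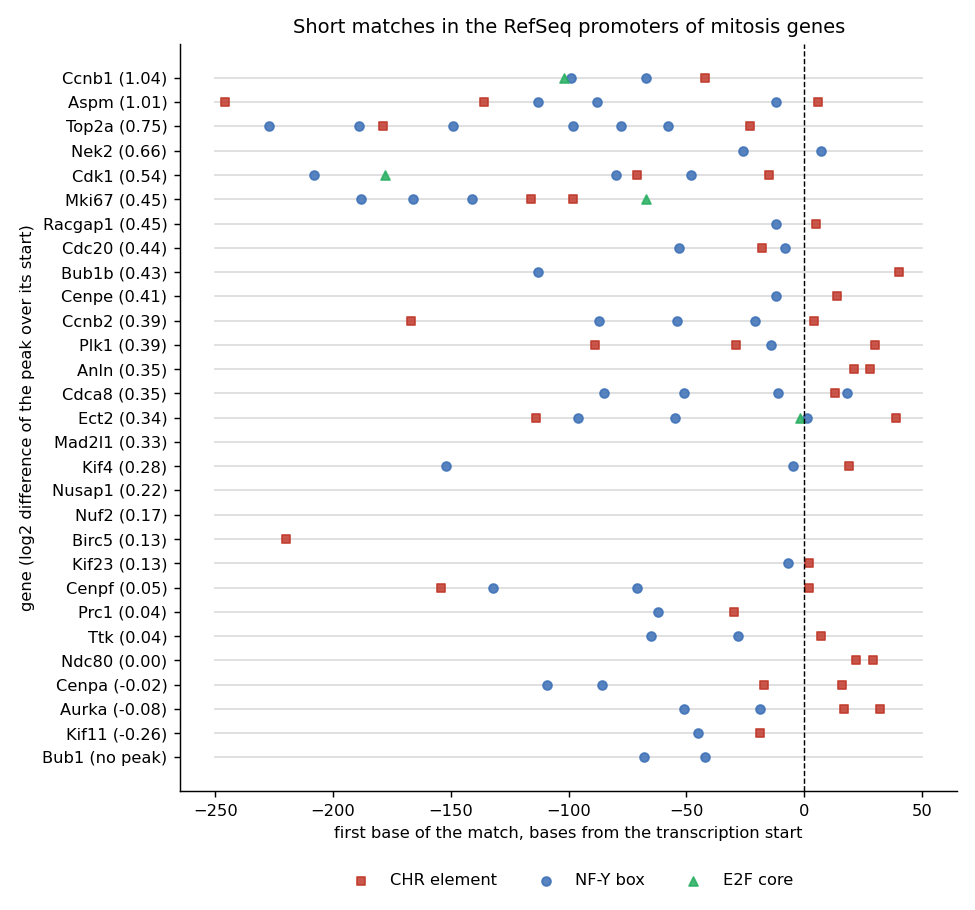
Position of the first base of each CHR, CCAAT (NF-Y box) and E2F match, in bases from the transcription start, in the 29 promoters with a RefSeq entry, ordered by the log2 difference of the peak over the start. CHR and CCAAT matches crowd the last 100 bases before and the 50 bases after the start in genes with high and with low differences, and 21 of the 29 hold both.

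Other cores lay nearer to their share over all promoters. An E2F core (TTCCCGC or TTGGCGC on either strand) stood in 4 promoters, those of *Ect2*, *Mki67*, *Cdk1* and *Ccnb1* (13.8%, against 6.81% of all promoters and 11.7% of those under a peak). In *Ccnb1* and *Ect2* the E2F match overlaps a CCAAT box. The E-box CACGTG stood in 2 promoters (6.9%, against 7.15%). The TEAD core CATTCC stood in 4 (13.8%, against 14.7% of all promoters and 12.4% of those under a peak). The members' windows had a median GC content of 58.7% and a median of 24 CpG, against 60.7% and 20 for all promoters under a peak. A match describes letters and is not evidence of binding.

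Most peaks over the starts of mitosis genes had a difference above 0, and few of them passed 1.5-fold. Of the 36 genes, 34 had a start covered by a peak, whichever start was nearest to the peak centre, and 30 of these 34 peaks had a difference above 0 (88.2%), against a background of 50.1% of the 12022 peaks over any start. The median difference was 0.34, against 0.01 for all such peaks. Most differences were small. At least 1.5-fold higher were 4 of the 34 (11.8%), those over *Ccnb1*, *Aspm*, *Top2a* and *Nek2*, against a background of 4.43%. At least 1.5-fold lower were 0, against 4.18%.

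The promoter peaks of the assignment rule gave the same direction with a smaller median. Of these 20 peaks, 16 had a difference above 0 (80%), against 51.3% of all 5189 promoter peaks, and the median was 0.15 against 0.01. At least 1.5-fold higher were 3 (15%), those of *Aspm*, *Top2a* and *Nek2*, against a background of 4.49%, and 0 were lower, against 3.58%. The promoter class left out 9 peaks that cover a member's start but whose centre lies outside the window, among them those of *Ccnb1*, *Cdk1*, *Aurkb* and *Mki67*. These 9 stood among the 28 other peaks, which had a median of 0.38 (0.01 for all). Of the 28, 4 were higher (14.3%) and 4 lower (14.3%), against 13% and 19.1% of all 40791 other peaks. The results by gene are therefore given for the peaks over starts. Each role holds few genes. Its counts stand beside 50.1% above 0 and 4.43% at least 1.5-fold higher over all peaks over a start.

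**Figure D2:**
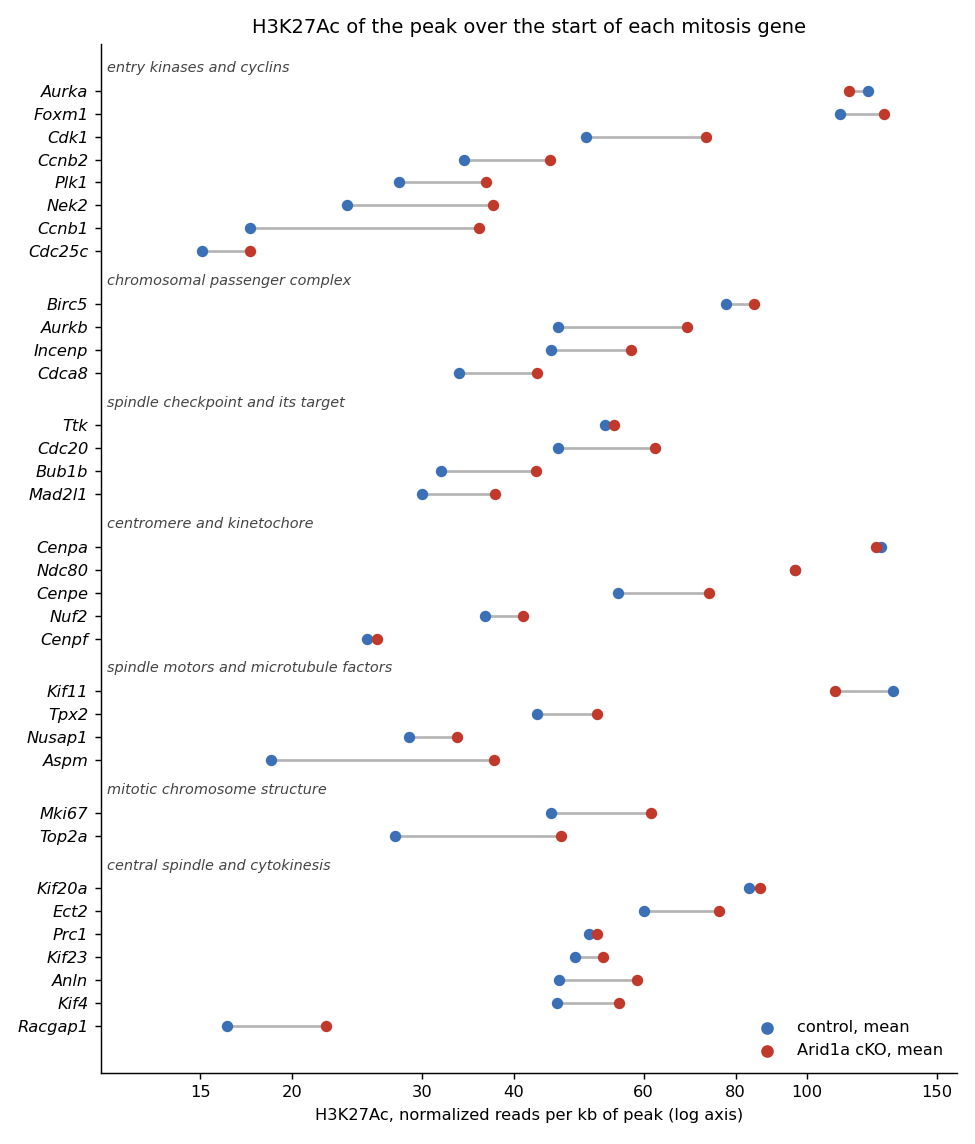
H3K27Ac of the peak over the start of each of 34 genes, in normalized reads per kb of peak on a log axis, as the authors' mean of the control hearts (blue) and of the *Arid1a cKO* hearts (red), by role and joined by a line. The *Arid1a cKO* mean lies to the right of the control mean in 30 genes, to the left in *Kif11*, *Aurka* and *Cenpa*, and on it in *Ndc80*.

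The largest difference lay at *Ccnb1*, which encodes cyclin B1, the partner of CDK1 in mitotic entry. Its peak (chr13:100785448-100787122, centred in an intron of the gene) had 29.2 normalized reads in controls and 60.1 in the mutants, a difference of 1.04 or 2.06-fold. *Ccnb2*, encoding cyclin B2, had 62.7 and 82.1 reads (difference 0.39). *Cdk1*, the kinase of both, had the widest peak of the members (6.79 kb, chr10:69346484-69353276), with 340 reads in controls and 495 in the mutants (0.54). All 3 differences lay above 0, and of these genes *Ccnb1* alone passed 1.5-fold.

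The other genes of mitotic entry spread more widely. *Nek2*, a kinase that separates centrosomes, went from 30.1 reads in controls to 47.5 in *Arid1a cKO* hearts (chr1:191820842-191822111, 0.66). *Plk1*, a kinase of mitotic entry and spindle assembly, had 71.5 and 93.7 reads (0.39). *Foxm1*, the transcription factor of G2 and mitosis genes, had 261 and 298 (0.19), but its peak also covered a start of *Rhno1* and was centred nearer to it. *Cdc25c*, the phosphatase that activates CDK1, had the lowest level of all members, 15.1 reads per kb in controls and 17.5 in *Arid1a cKO* hearts (0.21). *Aurka*, a kinase of centrosome maturation, was among the highest, at 121 and 114 reads per kb (−0.08), under a peak shared with a start of *Cstf1*. Over the 8 genes of this group the median difference was 0.39, and 7 lay above 0.

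*Ccna2*, encoding cyclin A2, had no peak over its start. Its nearest peak (chr3:36570791-36572963) ended 75 bp from the start, inside the gene, and had 105 reads in controls and 136 in the mutants (0.37). The position of a peak edge thus decided whether this gene was counted.

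All 4 genes of the chromosomal passenger complex, which corrects wrong attachments of chromosomes and later sits on the central spindle, had differences above 0, with a median of 0.35. *Aurkb*, its kinase, had 83.9 reads in controls and 125 in the mutants (chr11:69045093-69046920), and its 1.49-fold difference fell just under the threshold. *Incenp*, its scaffold, had a difference of 0.36 and *Cdca8*, encoding borealin, 0.35. *Birc5*, encoding survivin, had the highest level of this group, 77.5 reads per kb in controls and 84.8 in *Arid1a cKO* hearts (0.13). The peak of *Incenp* also covered a start of *Gm50340*, and that of *Cdca8* a start of *9930104L06Rik*.

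The spindle checkpoint delays the separation of chromosomes until each is attached, by holding back the activator CDC20. The 4 genes of this group with a peak over their start had a median difference of 0.38. *Cdc20* had 120 reads in controls and 163 in the mutants (0.44). *Bub1b*, encoding the checkpoint kinase BUBR1, had a difference of 0.43, and *Mad2l1*, encoding MAD2, 0.33. *Ttk*, encoding the checkpoint kinase MPS1, had the highest level of the group in controls, 53.1 reads per kb, and 54.6 in *Arid1a cKO* hearts (0.04). *Bub1*, a kinase of the same checkpoint, had no peak over its start, and the nearest peak edge lay 22.2 kb away.

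Centromere and kinetochore genes had the smallest differences of all roles, with a median of 0.05 over 5 genes. *Cenpa*, which encodes the histone H3 variant of centromeres, had a high level in both groups, 126 reads per kb in controls and 124 in *Arid1a cKO* hearts (−0.02). *Ndc80*, a subunit of the microtubule-binding complex of the kinetochore, had 96.3 reads per kb in both groups (0.00). Its partner *Nuf2* had a difference of 0.17 and *Cenpf*, a large kinetochore protein, 0.05. *Cenpe*, a kinesin that carries chromosomes to the spindle equator, stood apart from them, with 114 reads in controls and 151 in the mutants (0.41).

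The 4 spindle genes ranged from −0.26 to 1.01, with a median of 0.24. *Aspm*, which encodes a protein of the spindle poles, went from 37.3 reads in controls to 75.1 in *Arid1a cKO* hearts (chr1:139453728-139455721), a 2.01-fold difference. *Kif11*, the motor that pushes the spindle poles apart, had the highest level per kb of all members in controls, 131, and 109 in *Arid1a cKO* hearts (chr19:37374980-37377703), and the largest difference below 0 (−0.26). *Tpx2*, which activates Aurora A on the spindle, had a difference of 0.27, and *Nusap1*, a microtubule binding protein, 0.22. The start of *Nusap1* shared its peak with a start of *Oip5*.

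Both genes of mitotic chromosome structure had differences above 0, and 1 of them passed 1.5-fold. *Top2a*, the topoisomerase that untangles sister chromatids, had 61 reads in controls and 103 in the mutants (chr11:99023013-99025222), a 1.68-fold difference. *Mki67*, encoding the proliferation marker Ki-67, which coats mitotic chromosomes, had 138 and 189 reads (0.45). 

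All 7 genes of the central spindle and cytokinesis had differences above 0, with a median of 0.28 and a highest value of 0.45, and 0 reached 1.5-fold. *Racgap1*, a subunit of centralspindlin, had the second lowest level of all members, 16.3 reads per kb in controls and 22.2 in *Arid1a cKO* hearts (0.45), in a peak of 5.3 kb. Its partner, the kinesin *Kif23*, had a difference of 0.13. *Ect2*, the exchange factor that activates RhoA at the cleavage site, had 199 and 252 reads (0.34), and *Anln*, the anillin of the contractile ring, 191 and 244 (0.35). *Kif20a*, a kinesin of the central spindle, had the highest level of this group, 83.3 reads per kb in controls and 86.2 in *Arid1a cKO* hearts (0.05). *Kif4*, a chromosome-bound kinesin, had a difference of 0.28 and *Prc1*, which bundles the microtubules of the central spindle, 0.04. The peaks of *Ect2*, *Anln*, *Kif4* and *Kif20a* each covered a start of a second gene.

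In all, 9 of the 34 peaks covered a start of another gene as well, and the reads there cannot be divided between the genes. Their median difference was 0.28 and 8 of the 9 lay above 0. The 25 peaks over a member's start alone had a median of 0.39, with 22 above 0. The 4 genes at least 1.5-fold higher were all among the 25.

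The members' levels were modest for peaks over starts. Their median was 45.3 reads per kb in controls and 53.8 in *Arid1a cKO* hearts, against 62.3 and 61.8 for all peaks over a start, at an equal median width of 2.21 kb. *Kif11*, *Cenpa*, *Aurka*, *Foxm1* and *Ndc80* had the highest levels in controls (from 131 down to 96.3 reads per kb), and *Cdc25c*, *Racgap1*, *Ccnb1*, *Aspm* and *Nek2* the lowest (from 15.1 up to 23.7). In this order the genes with high levels had differences from −0.26 to 0.19, and those with low levels from 0.21 to 1.04. The control level is also subtracted in the difference, so this contrast is partly built in.

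The difference went down as the level went up, in the members and in all peaks. Spearman's rho between the mean level of a peak and its difference was −0.40 over the 34 members and −0.23 over all 12022 peaks over starts. These are descriptions, since the points share the same libraries and the level is part of both measures. All peaks over starts were divided into 4 groups of near equal size by level. In the lowest group, the 7 members had a median difference of 0.43, against 0.12 for all 3004 peaks there. All 7 lay above 0, against 62.1%, and 3 of the 7 were at least 1.5-fold higher, against 14.3%. In the second group, 15 of 15 members lay above 0 with a median of 0.35, against 54.7% above 0 and a median of 0.03 for all peaks. Of these 15 members, 1 was at least 1.5-fold higher, against 2.44%. In the third group, the 9 members had a median of 0.19, against 0.00 for all peaks, and 7 lay above 0, against 48%. In the highest group the 3 members had a median of −0.02, against −0.05, and 1 lay above 0, against 35.9%.

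**Figure D3:**
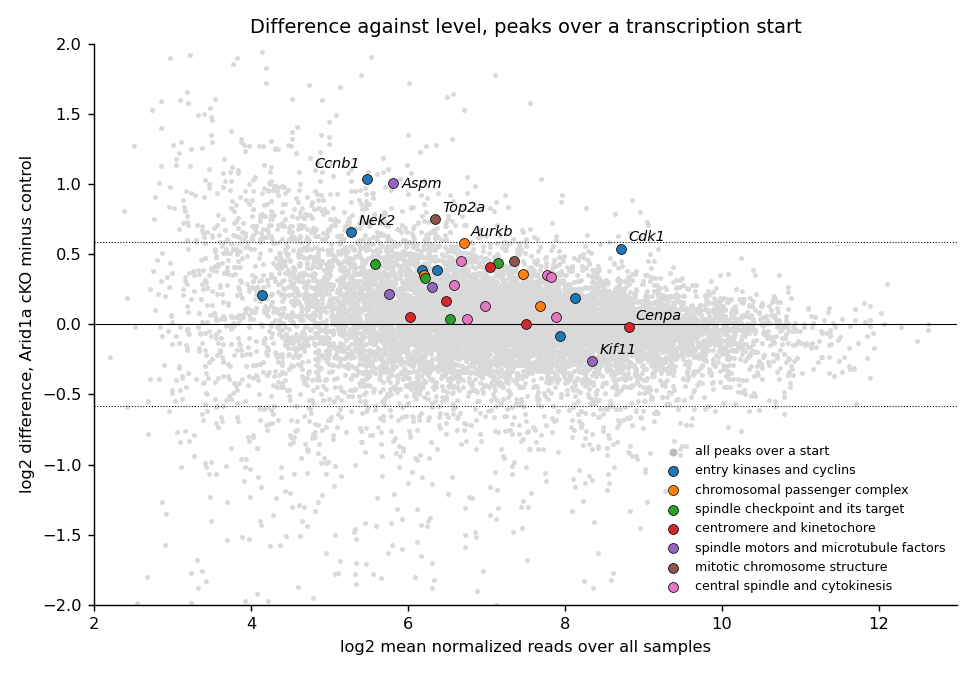
Log2 difference (*Arid1a cKO* minus control) against the log2 mean of normalized reads over all samples, for the 34 peaks over starts of mitosis genes, coloured by role, and for all peaks over starts (grey; 67 peaks past an axis limit of 2 in either direction are not drawn). Dotted lines mark 1.5-fold. The members lie mostly above 0 in the low and middle range of levels, with *Ccnb1* (1.04) and *Aspm* (1.01) highest, and reach −0.26 at *Kif11*.

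The H3K27Ac differences were also read by promoter sequence, with no test. The 24 genes with a CHR match and a peak over their start had a median difference of 0.35, and the 4 without a match 0.28. With and without a CCAAT box the medians were 0.39 over 22 genes and 0.20 over 6. *Kif11* and *Cenpa*, with differences of −0.26 and −0.02, held both a CHR match and a CCAAT box.

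A wider set of genes of the same process was read beside the members. It held 116 other mitosis genes, such as kinesins, condensins, further centromere proteins and subunits of the anaphase promoting complex, of which 114 had a start under a peak. Their 115 peaks had a median difference of 0.11, and 84 (73%) lay above 0, against 50.1% of all peaks over a start. At least 1.5-fold higher were 7 (6.09%), against 4.43%, and 0 were lower, against 4.18%. The largest differences lay at *Knstrn*, encoding a kinetochore and spindle protein (1.04), *Fam83d*, encoding a spindle protein (1.04), and *Psrc1*, encoding a microtubule regulator (0.92). DNA replication genes, which act in S phase, had a median of 0.16 over 61 peaks, with 78.7% above 0. Of these 61 peaks, 2 (3.28%) were at least 1.5-fold higher, against the same 4.43%. Ribosomal protein genes had a median of −0.02 over 82 peaks, with 39% above 0, 0 higher and 2 lower (2.44%). Both lower peaks covered a start of the same gene, *Rpl3l* (−0.95 and −0.75). The order of the medians was members, DNA replication, other mitosis genes and ribosomal protein genes, and no test was made of the differences between lists. The lists were not matched for level, and over all peaks over starts the difference went down with level (rho −0.23). The part of level in this order was not tested. The peak shared by *Nusap1* and *Oip5* (0.22) was counted both among the members and among the other mitosis genes.

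Markers of the cell types of the heart differed between the genotypes too. The 8 fibroblast markers all had differences above 0 over their starts, from 0.17 to 0.71, with a median of 0.42, and their summed level went from 1830 normalized reads in controls to 2550 in *Arid1a cKO* hearts, a ratio of 1.4. The summed level of the 34 mitosis peaks went from 4510 to 5300, a ratio of 1.17. The 13 cardiomyocyte markers all had a start under a peak, and their sum went from 25700 to 23500, with a median of −0.15 and 2 above 0, *Myh6* (0.13) and *Nppa* (2.24), the gene of atrial natriuretic peptide. Mural cell markers went from 2030 to 2420, with 3 of 5 above 0. *Tagln* (1.09) and *Acta2* (0.89) were the highest, while *Pdgfrb* had 0.19, *Rgs5* −0.02 and *Cspg4* −0.07.

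Endothelial markers went from 8140 to 8420 normalized reads, with 6 of 8 above 0 and a median of 0.04. Epicardial markers, with 2 of 4 genes under a peak, went from 1080 to 1150, with *Tbx18* above 0 (0.45) and *Wt1* below 0 (−0.22). Leukocyte markers went from 171 to 193 over 3 peaks of *Spi1* and *C1qa*, all above 0 with a median of 0.17, and the starts of *Ptprc*, *Csf1r*, *Adgre1*, *Cd68*, *Lyz2* and *Cx3cr1* had no peak. The part of the cell types in the result at mitosis genes was not tested. In bulk ventricle, fewer cells of a type and less mark per cell cannot be told apart. The peak over the start of *Arid1a* differed by 0.05, which says nothing about the deletion, since the mark at the promoter does not show whether the floxed part is gone.

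**Figure D4:**
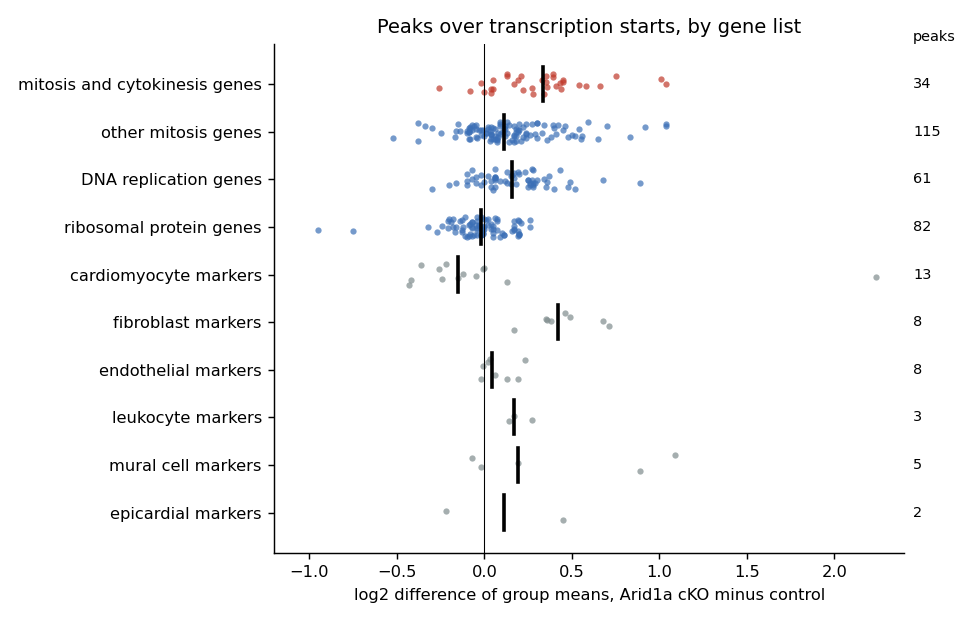
Log2 difference of each peak over a transcription start, by gene list, with the median as a black bar and the number of peaks at the right (points are shifted up and down only to keep them apart). The mitosis and cytokinesis genes have a median of 0.34 and the fibroblast markers 0.42. The medians of the ribosomal protein genes (−0.02) and cardiomyocyte markers (−0.15) lie below 0. The lists are not matched for level.

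Away from the starts the directions were mixed. There were 19 such peaks nearest to 11 of the genes, at 1.16 to 145 kb from the start, and the median level was 24.1 normalized reads in controls and 20.4 in the mutants. Their median difference was 0.14, with 12 above and 7 below 0. At least 1.5-fold higher were 3 (15.8%), against a background of 14.7% of the 33958 peaks away from starts, and 4 were lower (21.1%), against 22%. These shares lie near the background.

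The peaks away from starts that passed 1.5-fold were weak. A peak 60.4 kb from *Cenpf* (chr1:189627289-189628089, intergenic) had a mean of 3.84 reads for the controls and 11.4 for *Arid1a cKO* (1.57), while another 10.3 kb from the same gene (chr1:189697934-189698878, intergenic) had 24.1 and 9.45 (−1.35). The nearest peaks of 1 gene thus differed in opposite directions. A peak in an intron of *Bub1b*, 2.08 kb from its start (chr2:118599803-118600788), had 7.94 and 17.5 reads (1.14), and one 145 kb from *Nuf2* (chr1:169386643-169387253, intergenic) had 4.99 and 9.51 (0.93).

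On the lower side, a peak 19.9 kb from *Ccnb2* lay in an intron of *Rnf111* (chr9:70440950-70441979) and had 12.5 reads in controls and 4.26 in the mutants (−1.55). A peak 91.4 kb from *Mad2l1* (chr6:66443480-66444113, intergenic) had 13.2 and 5.7 (−1.21), and one in an intron of *Cenpa* (chr5:30669315-30670030) had 12.5 and 7.11 (−0.81). The *Ccnb2* peak was lower while the peak over the start of that gene had a difference of 0.39. Nearness to a start does not show which gene a distant peak acts on.

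The remaining peaks away from starts, strong and weak, did not pass 1.5-fold. The strongest 2 were a peak 4.98 kb from *Aurkb*, with 175 reads in controls and 172 in the mutants (−0.02), and a peak 111 kb from *Cenpf*, with 163 and 241 (0.56). *Nuf2* had 3 peaks at 23.1, 43.4 and 54.8 kb with differences of 0.45, 0.25 and 0.03. The rest were the other peaks of *Aurkb* (0.08 and 0.47), 1 of *Cenpf* (0.54), 1 of *Cdk1* (0.14), 1 of *Cdc20* (−0.04), 1 of *Ndc80* (−0.15) and that of *Ccna2* given above.

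**Figure D5:**
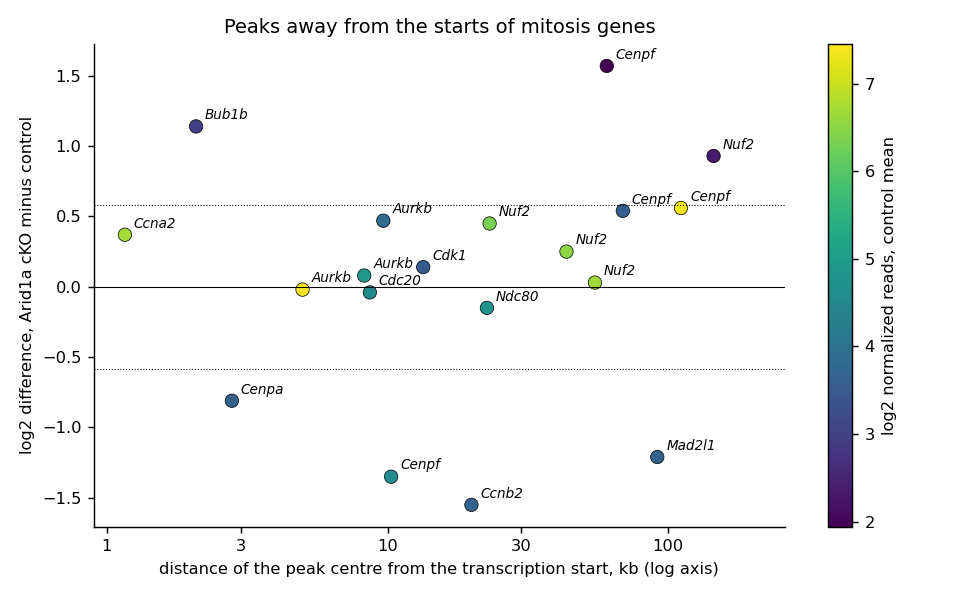
Log2 difference of the 19 peaks away from starts against the distance of the peak centre from the start in kb on a log axis, coloured by the log2 of normalized reads in controls and labelled with the nearest mitosis gene. Dotted lines mark 1.5-fold. The 7 peaks past the lines are spread over distances from 2.08 to 145 kb, and those with over 100 reads lie between them.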

How the data were processed

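H3K27Ac ChIP-Seq and input libraries were made from P7 ventricles of 2 control and 2 *Arid1a cKO* mice, grouped by the genotype and antibody in the labels. The authors aligned the reads to mm10 using BWA, and peaks were called by HOMER against merged inputs, keeping peaks found in more than 1 sample, and compared genotypes with DiffBind and DESeq2. The submitters' processing notes list BWA 0.7.17-r1188, HOMER 4.11, DiffBind 2.12.0 and DESeq2 1.24.0. The deposited table gives 45987 peaks, each with the log2 of mean normalized reads over all samples and per genotype, made by the authors. How reads were scaled is not given in the sources used here. It has 0 columns of per-sample values. Its columns of the authors' own fold changes, p-values and FDR were not used.

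Differences of the authors' means were computed here without a test in Python 3.11.15 with numpy 2.4.6, pandas 2.3.3, scipy 1.17.1 and matplotlib 3.10.9. Peaks were joined to 45756 curated RefSeq transcripts of GRCm38.p6, and 7 peaks on unplaced sequences were left out. Motifs were searched on both strands. The joining was tested on simulated data. The members and gene lists were chosen with earlier results of these data known. Genes with values in full were those past 1.5-fold, the 5 highest and 5 lowest per kb in controls, and 1 or 2 of the highest of each role, with further members described beside them. Alternatives changed the promoter class, scaling, read minimum, transcripts, pseudocount and threshold.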

Additional observations from a re-analysis of the deposited data

How the results depend on the processing

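The direction of the medians held under every alternative run. The median over promoter peaks, 0.15, was 0.35 when any peak covering a start counted as promoter and 0.33 with the centre within 1000 bp on either side. It was 0.14 after centring on all peaks or on all promoter peaks, 0.13 with at least 20 normalized reads and 0.14 with a pseudocount of 5. In alternatives chosen after seeing the data, it was 0.34 over all peaks covering a member's start and 0.39 over those covering no other gene's start. The median over other peaks, 0.38, became 0.14 and 0.25 with the wider promoter classes, 0.37 with either centring, 0.27 with protein-coding transcripts only and 0.36 with the pseudocount. Promoter peaks counted as higher were 3, and became 1 at a threshold of 2-fold and 8 at a lower threshold of 0.32 on the log2 scale. Other peaks counted as higher were 4, and became 1 with at least 20 reads and 16 at that lower threshold. Those counted as lower were 4, and became 0 with at least 20 reads and 8 with protein-coding transcripts only. Members with a promoter peak were 20, and 34 when any peak over a start counted. The other 47 values stayed within their limits.

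No paired analysis was possible because the columns analysed hold group means, and no replicate was left out for the same reason. The spread between hearts and the depth of the libraries are unknown, and no difference is set against replicate error.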
